A study of Rattus norvegicus with 6 samples.

Results

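Genes of the potassium, sodium, calcium and chloride channels were compared between tolerated and syngeneic rat kidney transplants. The members were all genes whose single symbol in the array's annotation starts with Kcn, Scn and a digit, Scnn1, Cacn or Clcn, and the brightest probe stood for a gene that had several. This gave 111 genes with 116 probes, out of 5990 genes with a named probe and 26857 probes on the array. They comprised 69 potassium, 15 sodium, 22 calcium and 5 chloride channel genes, counting pore-forming subunits together with their auxiliary subunits.

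Ion channels are membrane proteins whose pore lets a chosen ion pass down its electrochemical gradient. In the kidney, channels in the apical and basolateral membranes of tubule cells carry the final steps of sodium reabsorption and potassium secretion, keep the membrane voltage that drives the transporters, and recycle potassium for the sodium pump. Channels of excitable cells, such as the voltage-gated sodium channels, are best known from nerve and muscle, and several potassium channels serve lymphocytes and macrophages, where potassium efflux sustains calcium entry.

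Both groups were transplants removed on day 100. The tolerated grafts were LEW.1W kidneys (MHC haplotype RT1u) from donors aged 8 to 12 weeks, placed in LEW.1A rats (RT1a) that were treated with antibodies against donor class II molecules; these recipients lost their own kidneys on day 7. The syngeneic grafts were LEW.1A kidneys in LEW.1A rats, whose donor age, nephrectomy and any treatment the labels leave unstated. The strains share the genes outside the MHC, so haplotype, mismatch and antibody differed together and cannot be told apart. Each group had 3 samples with 1 array each, made from 0.5 µg of total RNA of a kidney section. The labels do not say whether replicates are separate animals, so each p-value refers to the spread among these samples alone.

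The deposited intensities had medians of 745 to 991 in tolerated and 421 to 707 in syngeneic arrays before normalization, and the number of arrays limits the precision. Levels below are log2 of the quantile-normalized intensity, and a change is the tolerated mean minus the syngeneic mean on that scale. Probes whose mean over the 6 arrays was at or below the lower quartile of all probes (7.76) were not tested. Kidney identity was plain in both groups: Umod, the thick ascending limb's uromodulin, averaged 20.39 in tolerated and 20.79 in syngeneic grafts. Proximal tubule markers had a summed level of 19.03 to 19.65 in tolerated and 22.21 to 22.50 in syngeneic arrays (log2 of the summed intensity of 16 markers). Of the 16, limma called 14 lower (adjusted p below 0.05), and Slc4a4 (-1.63) and Slc13a1 (-1.58) were lower without passing. The summed level of 9 macrophage and dendritic cell markers was 21.14 to 21.29 in tolerated and 17.61 to 19.54 in syngeneic arrays, and all 9 rose. In such bulk samples, fewer cells of a type and less RNA per cell cannot be told apart. With 1 array left out, the proximal tubule markers called lower numbered 11 to 15. For the macrophage list, 3, 5 and 3 markers were called higher when tolerated replicate 1, 2 or 3 was dropped. When syngeneic replicate 1, 2 or 3 was dropped, 6, 5 and 9 were.

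Most channel genes gave weak signal. Of the 111 members, 76 (68.5%) passed the filter on low signal and were tested, against 82.7% of all named genes, and 35 were not. The median level was 8.27 over the channel genes and 10.88 over all named genes, and 28.8% of channel genes lay above the median of all probes, against 63.4% of named genes. Probes differ in how strongly they bind, so these are levels of signal and not amounts of transcript. The 5 brightest members were Kcnk1 (mean level 15.80), Clcn2 (15.48), Kcnj16 (14.71), Kcnj1 (14.32) and Scnn1g (14.28), all known from tubule epithelium. Kcnk1, Clcn2 and Kcnj16 were the only members brighter than 9 in 10 of all probes. Around the filter, Kcnk18 (7.77), Scn3a (7.78) and Kcna1 (7.80) lay just inside, and Scn3b (7.66), Cacng6 (7.66) and Cacna1e (7.64) just outside.

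**Figure D1:**
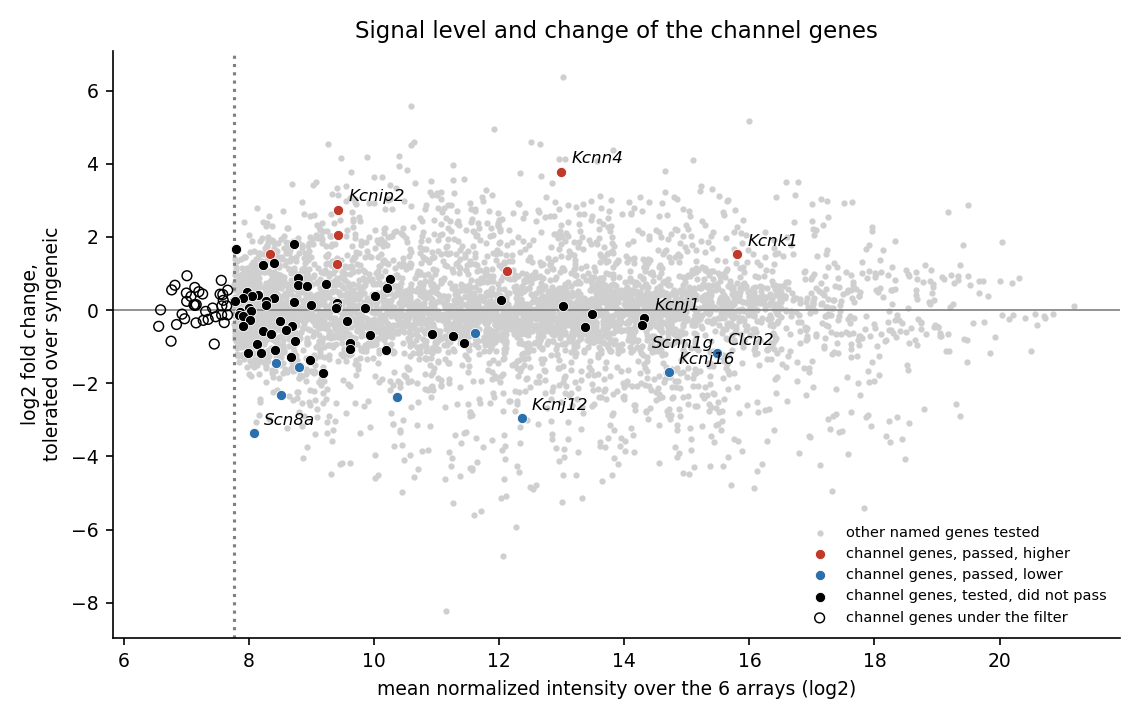
Mean normalized intensity over the 6 arrays (log2, x axis) against the log2 fold change of tolerated over syngeneic grafts (y axis) for each other named gene tested (grey) and each channel gene (coloured or black; open circles lie under the filter, marked by the dotted line at 7.76). Most channel genes crowd near the filter, while Kcnk1, Clcn2 and Kcnj16 sit at the bright end.

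Between the groups, limma called 16 of the 76 tested channel genes (adjusted p below 0.05 after Benjamini-Hochberg correction over all tested probes). In tolerated grafts 7 of them were higher and 9 were lower. That is 21.1% of the members tested, against 25.2% of all tested probes (12.4% higher and 12.8% lower) and 32.7% of named genes (15.5% higher and 17.2% lower). With all arrays, the share called among channel genes was not above either background. The median change was -0.07 over the tested members and -0.02 over all tested probes, with 36 members positive and 40 negative. A member whose lower group is dim enters the test through its higher group, so these counts describe the members tested and not all 111. In 4 of the 16 called genes (Scn8a, Cacng5, Scn4b and Cacna1i) the lower group's mean lay under 7.76, and the size of their change rests on a dim level. Without the filter, over all 111 members, 7 were higher and 8 lower (13.5%), against 14.1% of all 26857 probes called (6.84% higher and 7.28% lower). Of all 5990 named genes, 585 were called higher and 687 lower without the filter, a larger share than that of the members. With the filter at the median of all probes, 14 of 32 members passed, against 44.4% of probes.

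The groups' values did not overlap for 29 of the 76 tested members (38.2%), against 47.3% of all tested probes and 55.7% of tested named genes. Over all 111 members it was 31 (27.9%), against 38.2% of all probes and 48.0% of all named genes. Scaling arrays to equal medians gave 6 higher and 9 lower members (background 22.9%, with 8.61% higher and 14.3% lower), and gave a share of higher calls among all called probes of 37.5% in place of 49.1%, with a median change of all probes of -0.15 in place of -0.02. Leaving out 1 array changed the counts. Without tolerated replicate 1, 3 members were higher and 6 lower (12.2% of those tested, background 10.7%, with 4.01% higher and 6.68% lower). Without tolerated replicate 2 there were 6 of each (16.4%, background 10.1%, with 3.89% and 6.19%), and without tolerated replicate 3 there were 2 higher and 8 lower (13.3%, background 9.57%, with 3.49% and 6.08%). Without syngeneic replicate 1 there were 2 higher and 3 lower (7.04%, background 10.6%, with 4.57% and 6.01%), and without syngeneic replicate 2 there were 2 higher and 4 lower (7.79%, background 7.99%, with 3.11% and 4.88%). Without syngeneic replicate 3 there were 6 higher and 11 lower (23.6%, background 30.0%, with 15.1% and 14.9%). The members' share lay above that of all tested probes in the 3 fits that dropped a tolerated array and below it in the 3 that dropped a syngeneic one. The share of named genes was not counted in these fits. With all arrays it was above that of all tested probes (32.7% against 25.2%), so these gaps are not read as a trait of the members. Kcnip2, Kcnk1, Clcn2, Kcnj16 and Cacng5 were the 5 of the 16 called in all 6 such fits. Syngeneic replicate 3 was the syngeneic array nearest to the tolerated mean for 13 of the 16 called channel genes (81.2%), as for 78.1% of all called probes.

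**Figure D2:**
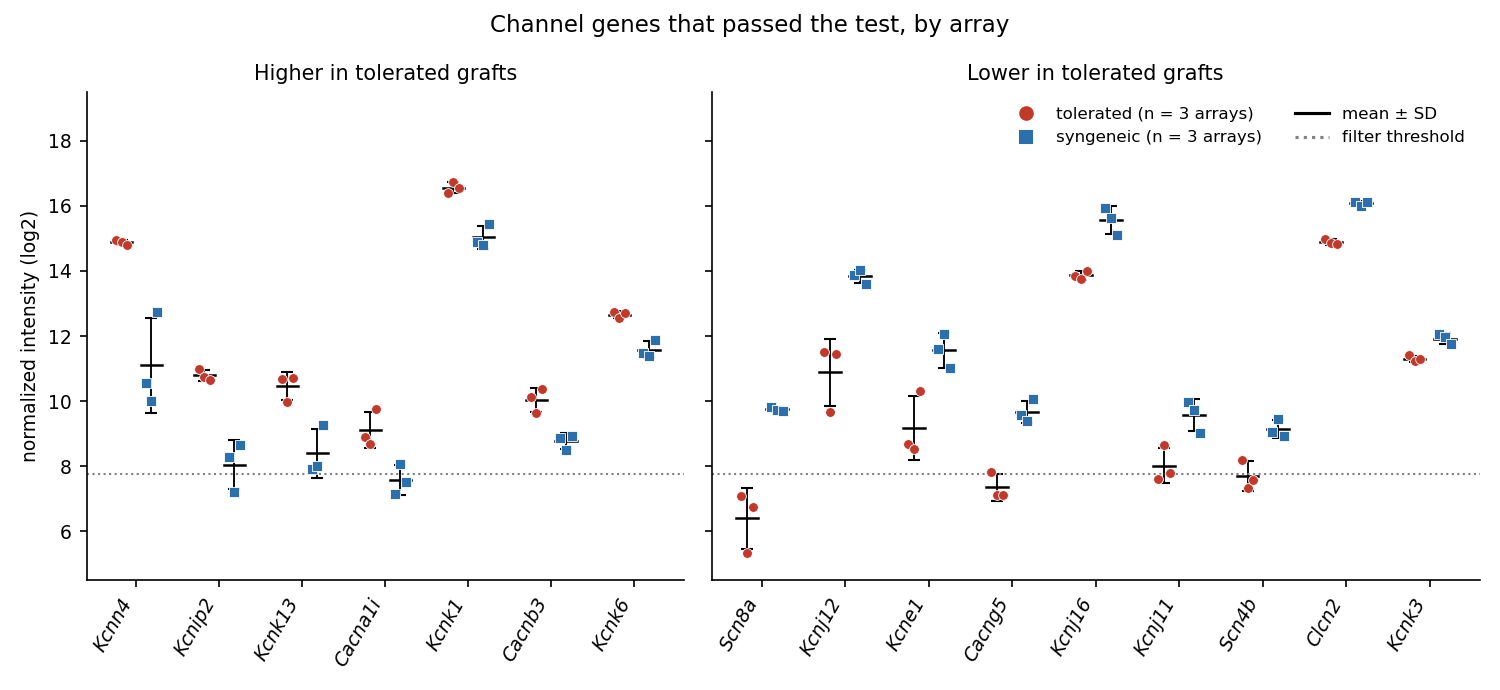
Normalized intensity (log2, y axis) on each array for the 16 channel genes that passed, ordered by size of change; circles are tolerated and squares syngeneic arrays, bars give mean ± SD (n = 3 each), and the dotted line is the filter at 7.76. No gene's groups overlap, and the tolerated values of Scn8a (5.34 to 7.10) lie under the line.

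**Figure D3:**
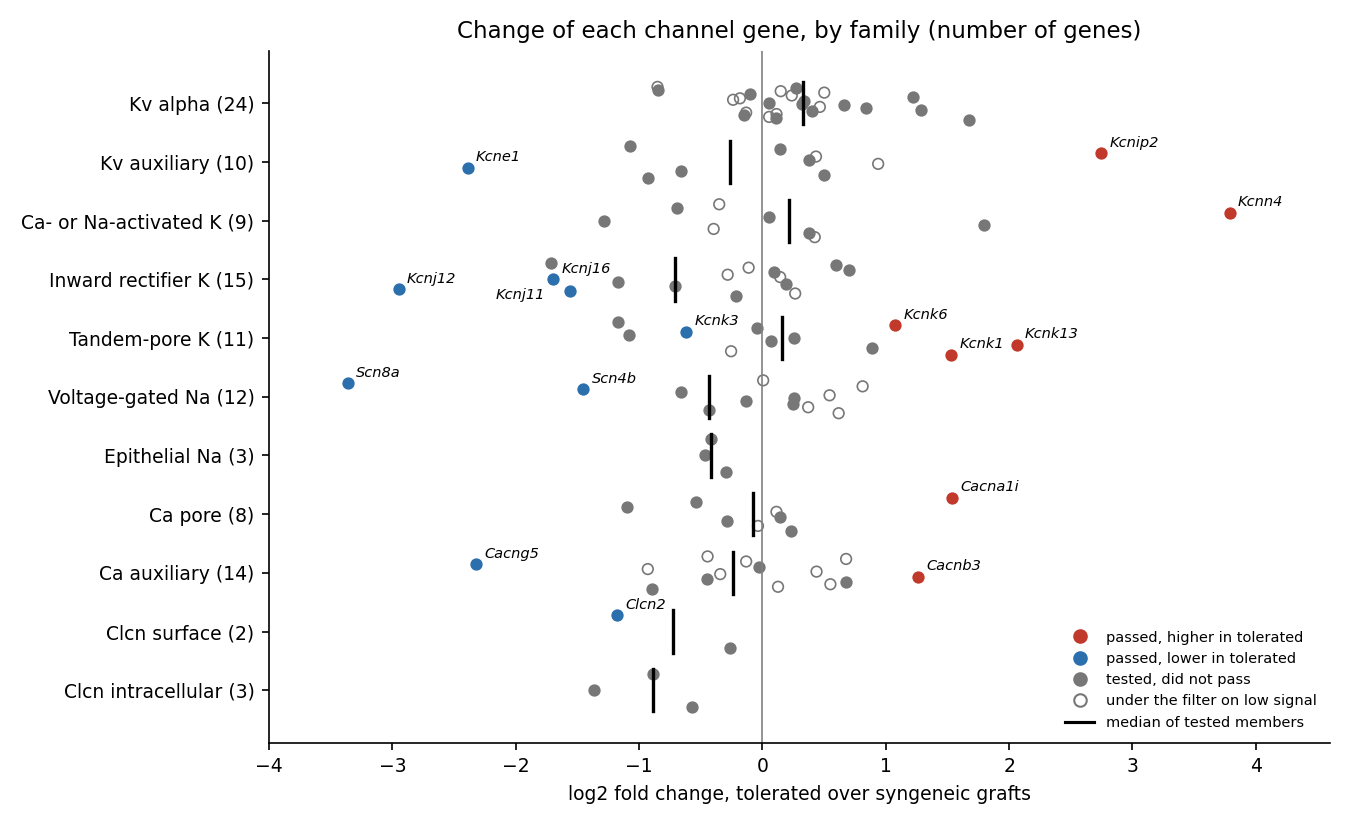
Log2 fold change of tolerated over syngeneic grafts (x axis) of each channel gene, by family (y axis, number of genes in brackets); filled points were tested, open points lie under the filter, and black bars are medians of tested members. Kv alpha, epithelial Na and Clcn intracellular genes hold no called member, and the called members run from -3.36 (Scn8a) to 3.79 (Kcnn4).

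By family, called members were spread over inward rectifiers (0 higher and 3 lower of 11 tested), tandem-pore potassium channels (3 and 1 of 10), auxiliary proteins of voltage-gated potassium channels (1 and 1 of 8), calcium- or sodium-activated potassium channels (1 and 0 of 6), voltage-gated sodium channels (0 and 2 of 7), calcium channel pores (1 and 0 of 6), auxiliary calcium channel subunits (1 and 1 of 6) and surface chloride channels (0 and 1 of 2). None passed among 14 voltage-gated potassium pores, 3 epithelial sodium channel subunits and 3 intracellular chloride transporters. The family medians ranged from 0.33 for the voltage-gated potassium pores to -0.89 for the intracellular chloride transporters, and differences between families were not tested.

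The largest increase among the channel genes was that of Kcnn4, which encodes the intermediate-conductance calcium-activated potassium channel of T cells, macrophages and red cells (probe 20966425). Kcnn4 stood at 14.95, 14.90 and 14.80 in tolerated grafts, against 10.55, 9.997 and 12.74 in syngeneic grafts. The tolerated values lay within a narrow band above all syngeneic values, and syngeneic replicate 3 lay between the tolerated values and the other syngeneic ones. The fold was 13.8 with a 95% interval of 4.15 to 45.9 (limma, log2 change 3.79 ± 0.70 SE, adjusted p = 0.0169). The call was not kept on dropping tolerated replicate 1, 2 or 3, or syngeneic replicate 1 or 2 (adjusted p = 0.0526 to 0.0600, changes 3.20 to 3.85) and held without syngeneic replicate 3 (4.59, adjusted p = 0.00192). Macrophage markers moved with it, with mean levels relative to all arrays of 1.63, 1.45 and 1.59 in tolerated and -2.21, -2.03 and -0.43 in syngeneic replicates 1 to 3. T cell markers, of which 5 of 8 were called higher, had 0.76, 1.15 and 1.11 in tolerated and -1.86, -0.93 and -0.22 in syngeneic replicates. Their summed level was 15.21 to 15.78 in tolerated and 12.61 to 14.30 in syngeneic arrays. The part of these cells in the change of Kcnn4 was not tested. With 1 array left out the T cell markers called higher numbered 0 without tolerated replicate 1, 2 or 3 or syngeneic replicate 1. They numbered 1 and 5 without syngeneic replicates 2 and 3.

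Other calcium-activated channels did not pass. Kcnmb4, an auxiliary subunit of the large-conductance BK channel found in the distal nephron and the brain, had 8.60, 10.70 and 9.54 in tolerated grafts, against 7.68, 7.93 and 7.83 in syngeneic grafts. Its groups did not overlap, but tolerated grafts were spread widely, and the change was 1.80 ± 0.52 (limma adjusted p = 0.0536; 2.27 with adjusted p = 0.0358 without tolerated replicate 1). Kcnma1, the BK pore itself, lay under the filter with 7.69, 7.96 and 7.73 in tolerated and 7.57, 7.15 and 7.39 in syngeneic grafts, and its unfiltered change of 0.42 had adjusted p = 0.223. Kcnmb1, the BK subunit of smooth muscle, had a change of 0.38 (adjusted p = 0.249). Kcnn1, a small-conductance channel, had -1.29 (adjusted p = 0.0535), with groups that did not overlap. Kcnn1 passed with equal medians (-1.41, adjusted p = 0.0466) and without tolerated replicate 3 (-1.61, adjusted p = 0.0376).

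Tandem-pore potassium channels set the resting voltage of many cells. Kcnk1, a tubule-expressed member and the brightest channel gene on the array (probe 21106682), had 16.41, 16.73 and 16.56 in tolerated grafts, against 14.88, 14.79 and 15.44 in syngeneic grafts. All tolerated values lay above all syngeneic ones, a 2.89-fold difference (limma, 1.96 to 4.25 at 95% confidence, adjusted p = 0.0104). It held in all 6 fits with 1 array left out (adjusted p up to 0.0437). Kcnk1 was higher in tolerated grafts, in which 14 of 16 proximal tubule markers were called lower. Of 7 principal cell and 6 thick ascending limb markers, 0 and 1 were called, with median changes of 0.20 and -0.12. The part of tubule cells in the values of Kcnk1 was not tested.

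Kcnk6, a tandem-pore channel known from mouse macrophages, where it lets out the potassium whose loss starts inflammasome assembly, had 12.74, 12.54 and 12.70 in tolerated grafts, against 11.48, 11.39 and 11.87 in syngeneic grafts (probe 22139336). The groups did not overlap, and the fold was 2.11 (95% interval 1.53 to 2.91; limma, adjusted p = 0.0146). Kcnk13, a halothane-inhibited channel known in mice from microglia, had 10.69, 9.96 and 10.73 in tolerated grafts, against 7.92, 8.02 and 9.27 in syngeneic grafts, a fold of 4.17 (1.99 to 8.75, adjusted p = 0.0230; probe 22152719). Syngeneic replicate 3 was again the highest of its group for both genes, as it was for the macrophage markers. That array was also the syngeneic one nearest to the tolerated mean for 78.1% of all called probes. The part of macrophages in the values of Kcnk6 and Kcnk13 was not tested. Both calls were not kept on dropping tolerated replicate 1 or 3, or syngeneic replicate 1 or 2 (adjusted p = 0.0541 to 0.0569 for Kcnk6 and 0.0726 to 0.0781 for Kcnk13).

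Kcnk3, the acid-sensitive background channel of smooth muscle, adrenal and carotid body cells, fell by a small amount, with 11.41, 11.22 and 11.29 in tolerated grafts, against 12.05, 11.97 and 11.74 in syngeneic grafts (probe 22153441). The log2 change was -0.62 ± 0.16 (limma, adjusted p = 0.0401). This call was lost without the filter (adjusted p = 0.0772), with equal medians (0.0576) and on dropping any array but syngeneic replicate 3 (adjusted p = 0.0845 to 0.123). The other 6 tested tandem-pore genes (Kcnk2, Kcnk4, Kcnk9, Kcnk12, Kcnk15 and Kcnk18) did not pass, with changes of -1.17 to 0.89, and Kcnk10 lay under the filter.

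Of the 8 tested auxiliary proteins of voltage-gated potassium channels 1 was called higher and 1 lower. Kcnab3 (-0.66, limma adjusted p = 0.0878) passed with the filter at the median of all probes (0.0468) and without syngeneic replicate 3 (-0.86, adjusted p = 0.0206). Kcnab2 (0.50, adjusted p = 0.426) passed without tolerated replicate 2 (0.95, adjusted p = 0.0481). Kcnip2 encodes a calcium-binding protein that brings Kv4 channels to the membrane and sets their inactivation, best known from heart and brain (probe 20923843). It stood at 10.99, 10.73 and 10.65 in tolerated grafts, against 8.28, 7.21 and 8.65 in syngeneic grafts. The groups lay far apart, with a fold of 6.70 (95% interval 3.45 to 13.03; limma, adjusted p = 0.00930) that held in all 6 fits with 1 array left out. A second Kcnip2 probe (21118855), listed with another transcript accession, lay under the filter and gave an unfiltered change of 0.85 (adjusted p = 0.220), so its probes did not give the same size. The Kv4 pore genes that the protein partners were not called: Kcnd2 had a change of 1.29 (adjusted p = 0.141; 0.0437 with the replicate number as a block) and Kcnd3 of 0.84 (adjusted p = 0.272), with -0.36 (adjusted p = 0.555) at the second Kcnd3 probe.

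Kcne1 is the small subunit that slows the Kcnq1 channel, and in the mouse proximal tubule the pair lets out potassium across the brush border. Kcne1 had 8.67, 8.53 and 10.31 in tolerated grafts, against 11.60, 12.07 and 11.005 in syngeneic grafts (probe 20793517). Tolerated replicate 3 was the highest of its group and still under all syngeneic values. The level was 5.24-fold lower in tolerated grafts (95% interval 2.05 to 13.4; limma, log2 change -2.39 ± 0.55, adjusted p = 0.0292). The call was gone on dropping tolerated replicate 1 or 2, or syngeneic replicate 1 or 2 (adjusted p = 0.0846 to 0.0952). Kcnq1 itself, with 12.93, 13.73 and 13.65 in tolerated and 13.65, 13.19 and 13.79 in syngeneic grafts, had a change of -0.10 with a 95% interval of -0.82 to 0.61 (-0.28 to 0.15 over the fits that dropped an array). Proximal tubule markers were also lower in tolerated grafts. They stood at -1.04, -1.59 and -1.23 in tolerated and 1.51, 1.42 and 0.93 in syngeneic replicates 1 to 3 (mean log2 level relative to all arrays). Within the groups the order differed, as the markers were highest in tolerated replicate 1 and Kcne1 in tolerated replicate 3. The part of the proximal tubule in the fall of Kcne1 was not tested.

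None of the 14 tested voltage-gated potassium pores passed limma. An unadjusted p under 0.05 was seen for 3 of them, all with higher tolerated values, against 28 of the 76 tested channel genes. Of all tested probes 25.2% passed even after adjustment, so the 3 are no excess. Kcna1, which in the distal convoluted tubule holds the voltage for magnesium uptake, had 8.33, 9.70 and 7.88 in tolerated grafts, against 7.12, 7.06 and 6.71 in syngeneic grafts. The syngeneic values of Kcna1 all lay under the filter threshold, and its change of 1.67 had adjusted p = 0.0530. Of the 14 changes 11 were positive, from 0.05 for Kcnh3 to 1.67, and 3 were negative, down to -0.85 for Kcns2. Kcna2, the brightest after Kcnq1, had 13.27, 13.002 and 12.97 in tolerated and 13.04, 12.93 and 12.94 in syngeneic grafts, with a change of 0.11 (-0.28 to 0.50). The other 10 pores (Kcna4, Kcnb2, Kcnc1, Kcng3, Kcnh5, Kcnh6, Kcnh8, Kcnq3, Kcns1 and Kcnv1) gave signal under the filter in this tissue.

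Inward rectifiers pass potassium inward more easily than outward and include the main renal potassium channels. Kcnj16, whose product joins the Kcnj10 or Kcnj15 product in the basolateral membrane of tubule cells, had 13.84, 13.74 and 14.00 in tolerated grafts, against 15.94, 15.64 and 15.09 in syngeneic grafts (probe 20711171). The groups did not overlap. Its level was 3.24-fold lower in tolerated grafts (95% interval 2.10 to 4.98; limma, adjusted p = 0.0105), and its second probe (21749912) also fell, with a change of -2.17 ± 0.31 (adjusted p = 0.00906). The call held in all 6 fits with 1 array left out. Its partners were dim: Kcnj10 lay under the filter, and Kcnj15 had 8.54, 6.81 and 7.497 in tolerated and 9.53, 9.47 and 7.36 in syngeneic grafts, overlapping, with a change of -1.17 (adjusted p = 0.293; -0.75 without tolerated replicate 2 and -1.88 without syngeneic replicate 3).

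Kcnj12, a strong inward rectifier of heart and skeletal muscle, had 11.52, 9.68 and 11.45 in tolerated grafts, against 13.86, 14.02 and 13.61 in syngeneic grafts (probe 21686638). Tolerated replicate 2 was lowest, and no value overlapped. The level was 7.72-fold lower in tolerated grafts (3.17 to 18.8; limma, log2 change -2.95 ± 0.52, adjusted p = 0.0150). The call was lost without syngeneic replicate 1 or 2 (adjusted p = 0.0540 and 0.0595). Among 6 tested muscle markers none passed by limma (2 higher without syngeneic replicate 3), and their summed level was 12.25 to 12.86 in tolerated and 11.82 to 11.98 in syngeneic arrays. The part of muscle cells in the values of Kcnj12 was not tested.

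Kcnj11, the pore of the ATP-sensitive channel that couples metabolism to voltage in pancreatic beta cells and muscle, had 7.61, 8.64 and 7.80 in tolerated grafts, against 9.98, 9.73 and 9.02 in syngeneic grafts (probe 21447909). It was 2.94-fold lower in tolerated grafts (1.55 to 5.598; limma, adjusted p = 0.0330), without overlap, and was not kept on dropping tolerated replicate 1 or 3, or syngeneic replicate 1 or 2 (adjusted p = 0.0973 to 0.102). Kcnj8, the vascular pore of that channel type, had 10.75, 10.24 and 10.54 in tolerated and 9.67, 10.06 and 10.02 in syngeneic grafts, and did not pass (change 0.59, adjusted p = 0.0900; 0.0465 with the filter at the median of all probes). Smooth muscle and pericyte markers, of which 4 of 6 were called higher, had 0.51, 0.56 and 0.77 in tolerated and -0.74, -0.70 and -0.39 in syngeneic replicates (summed level 16.37 to 16.87 in tolerated and 14.57 to 15.18 in syngeneic arrays). Their part in the values of Kcnj8 was not tested, and 1 to 4 of them were called higher with 1 array left out (1, 2 and 1 on dropping tolerated replicate 1, 2 or 3, and 3, 2 and 4 on dropping syngeneic replicate 1, 2 or 3).

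Kcnj1, the apical secretory potassium channel of the thick ascending limb and collecting duct, was not called. It had 13.65, 14.37 and 14.60 in tolerated grafts, against 14.36, 14.33 and 14.58 in syngeneic grafts. The groups overlapped except for the lower tolerated replicate 1, and the change was -0.22 with a 95% interval of -0.90 to 0.47 (-0.42 to 0.06 on dropping an array). The other inward rectifiers tested (Kcnj4, Kcnj5, Kcnj9, Kcnj13 and Kcnj14) had changes of -1.72 to 0.71 and did not pass, though Kcnj9 did without syngeneic replicate 3 (-2.36, adjusted p = 0.0338), and Kcnj2, Kcnj3 and Kcnj6 lay under the filter with Kcnj10.

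**Figure D4:**
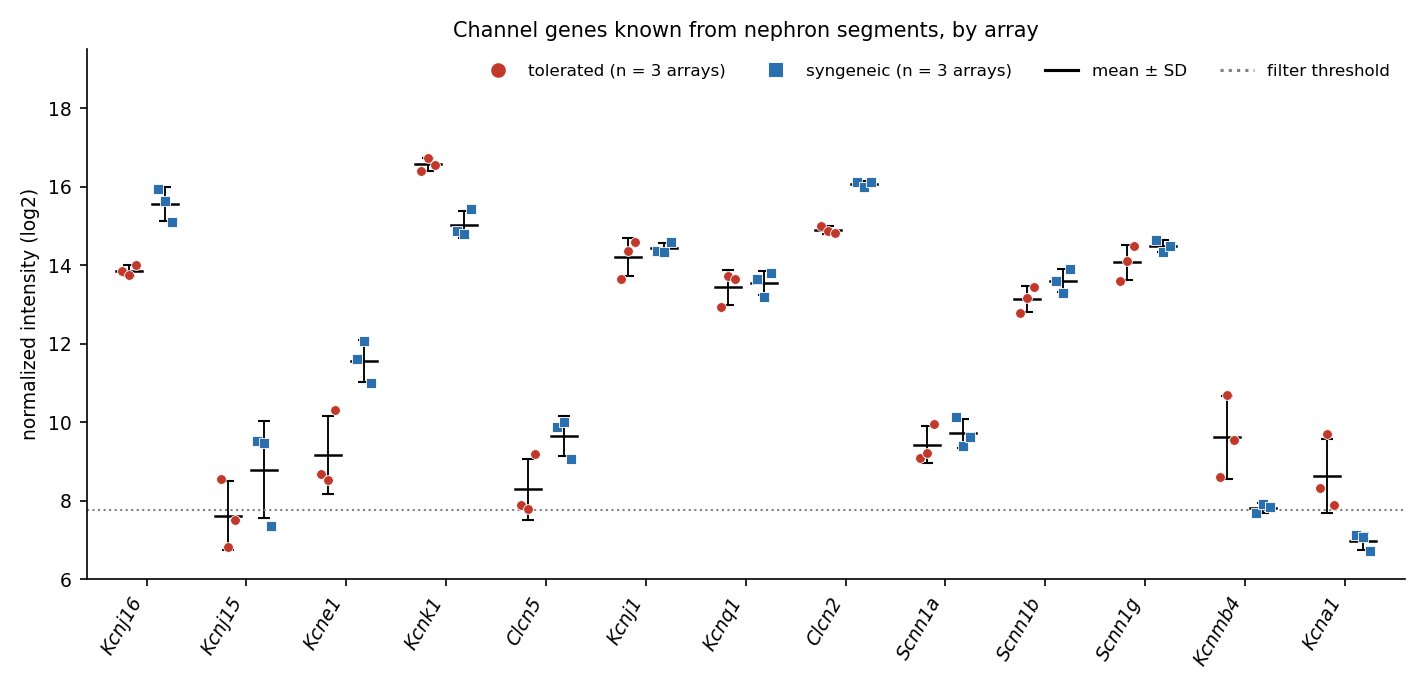
Normalized intensity (log2, y axis) by array for 13 channel genes known from the nephron (x axis); circles are tolerated and squares syngeneic arrays, bars give mean ± SD (n = 3 each), and the dotted line is the filter at 7.76. Kcnj16, Kcne1 and Clcn2 lie lower and Kcnk1 higher in tolerated arrays without overlap, while Kcnj1, Kcnq1 and the 3 epithelial sodium channel genes overlap.

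The epithelial sodium channel of the collecting duct is built from the products of Scnn1a, Scnn1b and Scnn1g and sets the last step of sodium reabsorption under aldosterone. Scnn1a had 9.08, 9.23 and 9.96 in tolerated grafts, against 10.13, 9.40 and 9.62 in syngeneic grafts. Scnn1b had 12.79, 13.16 and 13.45 in tolerated grafts, against 13.60, 13.30 and 13.89 in syngeneic grafts. Scnn1g had 13.60, 14.12 and 14.50 in tolerated grafts, against 14.64, 14.33 and 14.48 in syngeneic grafts. The groups overlapped for all 3 subunits, and tolerated replicate 1 was the lowest array for each. None passed limma (0 also at an unadjusted p under 0.05). The changes were -0.30 (95% interval -1.08 to 0.49) for Scnn1a, -0.46 (-1.08 to 0.15) for Scnn1b and -0.41 (-1.06 to 0.23) for Scnn1g, so a fall of about 1 on the log2 scale lies within each interval. On dropping an array they ran, in that order, from -0.56 to -0.09, from -0.63 to -0.29 and from -0.63 to -0.18. Principal cell markers, the cells of this channel, showed 0 of 7 called (1 higher without syngeneic replicate 1), with a summed level of 17.13 to 17.94 in tolerated and 17.52 to 17.84 in syngeneic arrays.

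Voltage-gated sodium channels open on depolarization and are the hallmark of nerve and muscle. None of the 12 genes lay above the median level of all probes, and 5 (Scn1a, Scn3b, Scn7a, Scn9a and Scn10a) were under the filter. Scn8a, a pore gene of neurons also reported from macrophages, had 7.10, 5.34 and 6.75 in tolerated grafts, against 9.83, 9.73 and 9.71 in syngeneic grafts (probe 21840306). The syngeneic values lay within a narrow band and the tolerated ones under the filter threshold. The fitted level was 10.3-fold lower in tolerated grafts (4.66 to 22.6; limma, log2 change -3.36 ± 0.46, adjusted p = 0.00854). Without syngeneic replicate 1 or 3 its mean lay under the filter and gave no test, and it passed in the other 4 fits.

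Scn4b, an auxiliary sodium channel subunit of heart and muscle, had 8.20, 7.33 and 7.58 in tolerated grafts, against 9.07, 9.46 and 8.93 in syngeneic grafts (probe 21510925). It was 2.73-fold lower in tolerated grafts (1.68 to 4.45; limma, adjusted p = 0.0195), without overlap, and the call was gone on dropping tolerated replicate 2 or 3, or syngeneic replicate 1 or 2 (adjusted p = 0.0584 to 0.0701). Both genes were dim. Of 10 neuronal markers 3 (Nefl, Syn1 and Snap25) lay under the filter. Of the 7 neuronal markers tested, 1 passed: Nefm, a neurofilament gene, fell with a change of -4.55. Eno2 (2.18), Stmn2 (1.47), Tubb3 (1.11) and Nefh (0.67) were higher in tolerated grafts without overlap, but did not pass. Th (-0.97) and Gap43 (-0.22) were lower and did not pass. The median change of the 7 was 0.67. The summed level of the list was lower, at 12.41 to 12.68 in tolerated and 13.05 to 13.70 in syngeneic arrays. Nefm was the brightest gene of the list, with a syngeneic mean of 12.92, and weighs most in that sum. The part of neurons in the sodium channel values was not tested. The other 5 sodium channel genes tested (Scn2a, Scn2b, Scn3a, Scn4a and Scn11a) had changes of -0.66 to 0.25 and did not pass.

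Voltage-gated calcium channels pair a pore subunit with beta, alpha-2-delta and gamma subunits. Cacna1i, a pore of the low-voltage T type, had 8.90, 8.69 and 9.75 in tolerated grafts, against 7.13, 8.07 and 7.52 in syngeneic grafts (probe 21155922). The groups did not overlap, with a fold of 2.90 (1.53 to 5.48; limma, adjusted p = 0.0334). No fit that dropped an array kept the call (adjusted p = 0.0565 to 0.0953), nor did scaling to equal medians (0.0566). The L-type pores were not called. Cacna1c, the one of vascular muscle, had 9.83, 6.84 and 8.38 in tolerated and 9.68, 9.06 and 7.18 in syngeneic grafts. These values were as far apart within groups as between them (change -0.29, or -1.02 to 0.47 on dropping an array). Cacna1d had a change of 0.14 (95% interval -0.81 to 1.09, and -0.17 to 0.35 on dropping an array). Cacna1f, the brightest calcium pore gene (mean level 10.18), had a change of -1.09 without overlap (limma adjusted p = 0.0648). It passed with the filter at the median of all probes (adjusted p = 0.0361). The other pores tested, Cacna1a (0.23) and Cacna1g (-0.54), did not pass.

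Cacnb3, a beta subunit also used by lymphocytes, had 10.13, 9.63 and 10.36 in tolerated grafts, against 8.88, 8.51 and 8.94 in syngeneic grafts (probe 21242672). The groups did not overlap and the fold was 2.40 (1.57 to 3.66; limma, adjusted p = 0.0194), not kept on dropping tolerated replicate 1 or 3, or syngeneic replicate 1 or 2 (adjusted p = 0.0572 to 0.0670). Cacng5, whose product steers AMPA-type glutamate receptors in the brain, had 7.84, 7.11 and 7.12 in tolerated grafts, against 9.58, 9.39 and 10.05 in syngeneic grafts (probe 21880495). It was 4.99-fold lower in tolerated grafts (3.04 to 8.17; limma, adjusted p = 0.00669) and passed in all 6 fits with 1 array left out, though its tolerated mean of 7.36 lay under the filter threshold. Cacna2d1, the alpha-2-delta subunit, had -0.89 (adjusted p = 0.0946; -1.14 with adjusted p = 0.0422 without syngeneic replicate 3), and Cacnb2 had -0.45 (adjusted p = 0.281; -0.70 to -0.26 on dropping an array). Under the filter lay 2 pore genes (Cacna1b and Cacna1e) and 8 auxiliary ones (Cacna2d2, Cacna2d3, Cacng1, Cacng2, Cacng3, Cacng6, Cacng7 and Cacng8).

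The 5 chloride channel genes with a named probe all had negative changes, and 1 passed. Clcn2, a channel of the epithelial cell surface that opens on hyperpolarization, had 15.00, 14.87 and 14.82 in tolerated grafts, against 16.11, 15.997 and 16.12 in syngeneic grafts (probe 21863430). The values within each group lay close together and the groups far apart by comparison. Clcn2 was 2.27-fold lower in tolerated grafts (1.77 to 2.90; limma, log2 change -1.18 ± 0.14, adjusted p = 0.0066), and passed in all 6 fits with 1 array left out (changes of -1.24 to -1.14). Clcn5 encodes the proton-coupled chloride exchanger of proximal tubule endosomes, whose loss causes Dent disease. It had 7.89, 7.79 and 9.19 in tolerated grafts, against 9.88, 10.02 and 9.07 in syngeneic grafts, and overlapped through tolerated and syngeneic replicates 3. Its change of -1.36 did not pass (limma adjusted p = 0.0828; -1.77 with adjusted p = 0.0455 without tolerated replicate 3). The lysosomal Clcn7 (-0.89, adjusted p = 0.332) and the endosomal Clcn4 (-0.57, adjusted p = 0.169) were not called, nor was the muscle channel Clcn1 (-0.27). The change of Clcn7 was -0.46 and -0.47 without tolerated replicate 2 and syngeneic replicate 1 and -1.42 without syngeneic replicate 3, and that of Clcn4 was -0.34 without tolerated replicate 2.

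Upstream sequence was taken from RefSeq (build GRCr8) for the called genes, to show how differently the start regions of members that moved together are composed. Of the 16 called genes 9 had an entry, as had 80 of all 111 members. The 250 bases before the annotated start are printed for the 4 with an entry that passed in all 6 fits with 1 array left out. Kcne1 was added after its match was seen, to show a search pattern it shares with Kcnj16. The motifs searched on both strands were the loose AP-1 pattern TGANTCA (N stands for any base), the STAT site TTCNNNGAA and the steroid receptor half-site AGAACA. Also searched were the HNF1 half-site GTTAAT, the GC box GGGCGG and the TATA box TATAAA. Matches stand in capitals. The windows are chr1:254613899-254614148 (- strand) for Kcnip2, chr11:93702344-93702593 (+ strand) for Clcn2, chr10:96517074-96517323 (+ strand) for Kcnj16, chr10:93336668-93336917 (- strand) for Cacng5 and chr11:45077034-45077283 (- strand) for Kcne1.
Kcnip2: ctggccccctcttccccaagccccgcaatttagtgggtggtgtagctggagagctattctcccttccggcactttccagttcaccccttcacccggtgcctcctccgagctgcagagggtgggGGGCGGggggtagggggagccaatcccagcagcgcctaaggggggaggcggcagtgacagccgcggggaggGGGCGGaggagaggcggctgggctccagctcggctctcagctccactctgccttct
Clcn2: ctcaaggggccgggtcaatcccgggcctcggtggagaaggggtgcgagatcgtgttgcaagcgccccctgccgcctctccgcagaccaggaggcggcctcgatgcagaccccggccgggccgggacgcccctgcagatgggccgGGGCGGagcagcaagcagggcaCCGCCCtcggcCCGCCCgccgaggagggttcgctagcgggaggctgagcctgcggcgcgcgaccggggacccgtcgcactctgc
Kcnj16: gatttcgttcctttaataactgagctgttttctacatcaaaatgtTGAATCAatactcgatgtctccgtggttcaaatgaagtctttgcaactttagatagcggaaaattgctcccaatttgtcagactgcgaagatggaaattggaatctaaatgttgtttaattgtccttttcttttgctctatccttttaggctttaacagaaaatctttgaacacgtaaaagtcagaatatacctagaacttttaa
Cacng5: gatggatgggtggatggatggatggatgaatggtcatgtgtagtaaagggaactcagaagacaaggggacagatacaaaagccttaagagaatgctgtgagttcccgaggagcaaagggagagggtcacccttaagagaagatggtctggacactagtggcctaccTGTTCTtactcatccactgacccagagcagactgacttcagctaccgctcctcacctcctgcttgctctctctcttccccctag
Kcne1: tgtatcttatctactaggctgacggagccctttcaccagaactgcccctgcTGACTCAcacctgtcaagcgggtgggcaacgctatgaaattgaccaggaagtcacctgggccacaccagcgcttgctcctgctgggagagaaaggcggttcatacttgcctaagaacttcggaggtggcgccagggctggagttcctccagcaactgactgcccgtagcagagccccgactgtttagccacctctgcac

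GC bases made up 68.0% of the window of Kcnip2, which rose, and 75.6% of Clcn2, 33.6% of Kcnj16, 51.2% of Cacng5 and 57.6% of Kcne1, which fell, against a median of 51.2% over all 33469 promoter entries and 62.0% over the 80 channel genes. The window of Kcnj16 was thus AT-rich, and 4.19% of all entries held less GC. The AP-1 pattern began 205 bases before the start of Kcnj16 and 199 bases before that of Kcne1, and was held by 6.34% of all entries and 5.0% of channel genes. The matches differed in the middle base, TGAATCA in Kcnj16 and TGACTCA in Kcne1. GC boxes numbered 3 in Clcn2 and 2 in Kcnip2, and 51.2% of channel genes held at least 1, against 30.5% of all entries. The steroid receptor half-site stood 84 bases before the start of Cacng5 and was held by 17.5% of all entries and 12.5% of channel genes. The STAT letters, held by 7.67% of all entries, the HNF1 letters (6.45%) and the TATA letters (12.9%) were not in the windows of these 5 genes. Called genes in both directions thus held GC boxes, and a match is no evidence of binding.

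Proteins that regulate these channels were measured too. Of 20 tested regulators 3 rose and 3 fell (limma), or 30.0%, with a median change of -0.32, against 32.7% of named genes called. Prss8, the membrane protease prostasin that activates the epithelial sodium channel, had 13.36, 13.51 and 13.53 in tolerated grafts, against 15.91, 15.69 and 15.21 in syngeneic grafts, a change of -2.14 ± 0.22 (adjusted p = 0.00504). Fxyd5, which modulates the sodium pump, had 16.34, 16.33 and 16.51 in tolerated grafts, against 12.98, 13.42 and 14.67 in syngeneic grafts, a change of 2.71 ± 0.44 (adjusted p = 0.0127). Prss8 passed with any 1 array left out, and Fxyd5 did except without syngeneic replicate 2 (adjusted p = 0.0525). Fxyd2, the pump's gamma subunit in renal tubules, fell by 1.11 on the log2 scale (adjusted p = 0.0210), and the deubiquitinase gene Usp2 fell by 2.15 (adjusted p = 0.0381). Dropping syngeneic replicate 3 alone kept the call of Usp2 (up to 0.116 otherwise), and Fxyd2 was gone on dropping tolerated replicate 1 or 2, or syngeneic replicate 1 or 2 (up to 0.0743). The kinase genes Sgk1 (-0.04), Wnk1 (-0.40), Wnk4 (-0.23) and Stk39 (-0.24) were not called. Nor were the mineralocorticoid receptor gene Nr3c2 (-0.51) and Hsd11b2 (-0.15), which guards that receptor from glucocorticoids. The called regulators numbered 2, 2, 3, 2 and 1 in the fits without tolerated replicates 1 to 3 and syngeneic replicates 1 and 2, and 6 without syngeneic replicate 3.

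Of 19 tested sodium, potassium and chloride transporters 4 fell and none rose (limma), or 21.1%, with a median of -0.06, against 32.7% of named genes called. These were the sodium-proton exchanger genes Slc9a3 (-2.01 ± 0.37, adjusted p = 0.0170) and Slc9a2 (-1.61 ± 0.18, adjusted p = 0.00569), the sodium-calcium exchanger gene Slc8a2 (-1.72 ± 0.38, adjusted p = 0.0258) and Slc26a4, the pendrin gene of intercalated cells (-1.64 ± 0.34, adjusted p = 0.0218). Slc9a2 passed with any 1 array left out. Slc9a3 was not kept on dropping tolerated replicate 2, or syngeneic replicate 1 or 2 (adjusted p up to 0.0628), Slc8a2 without tolerated replicate 1 or 3 or syngeneic replicate 1 or 2 (up to 0.0850), and Slc26a4 without tolerated replicate 1, 2 or 3 or syngeneic replicate 2 (up to 0.0669). Transporters called lower numbered 2 in 4 of these fits, 1 without syngeneic replicate 2 and 5 without syngeneic replicate 3. The cotransporter genes that diuretics block, Slc12a1 (0.27) and Slc12a3 (-0.50), did not pass. Among 39 tested genes of other ion and water channels 5 were called higher and 8 lower, or 33.3%, with a median of -0.03, against the same 32.7%. The water channel genes Aqp11 (-3.05 ± 0.32, adjusted p = 0.00504) and Aqp7 (-3.02 ± 0.39, adjusted p = 0.00724), both known from proximal tubules, passed with any 1 array left out. The calcium channel gene Trpv6 (4.95 ± 1.03, adjusted p = 0.0224) kept its call on dropping syngeneic replicate 3 alone (up to 0.0755 otherwise), and Trpc6 (2.03 ± 0.54, adjusted p = 0.0433) only without syngeneic replicate 2, where it was 1.41, or 3 (up to 0.115). The members of this list called in either direction numbered 6, 5, 6, 6 and 6 without tolerated replicates 1 to 3 and syngeneic replicates 1 and 2, and 14 without syngeneic replicate 3.

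**Figure D5:**
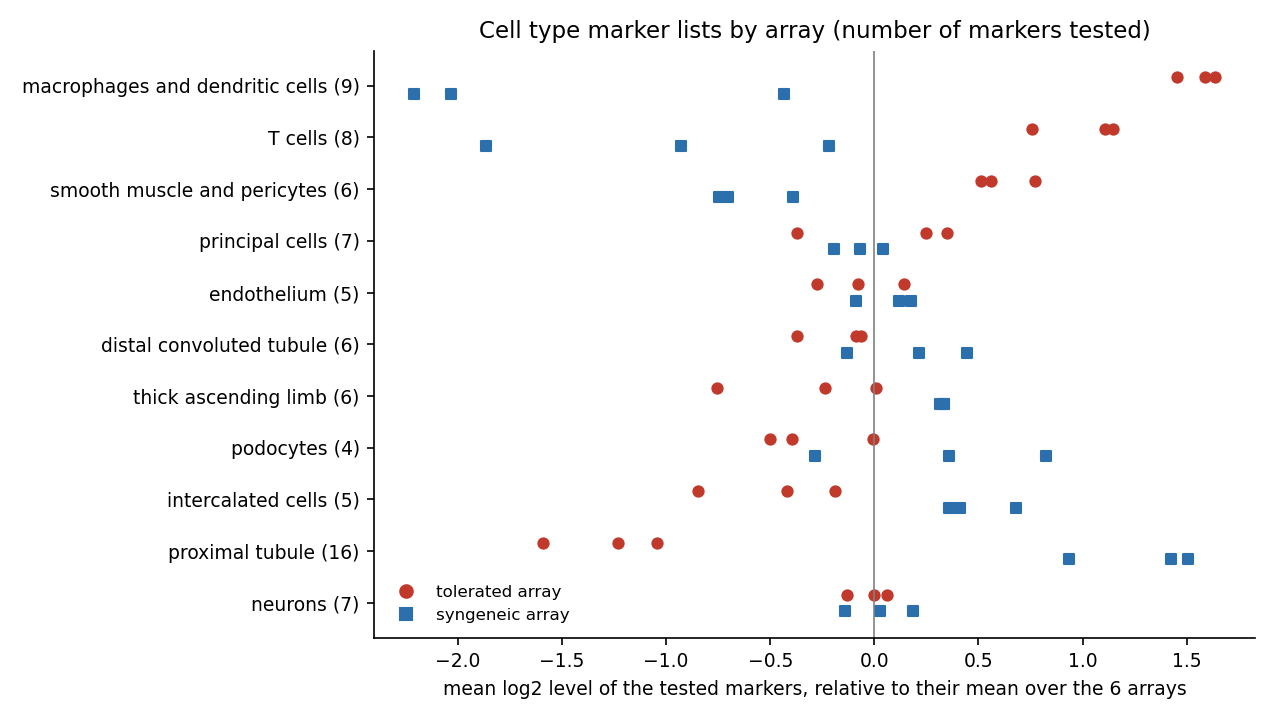
Mean log2 level of the tested markers of each cell type on each array, relative to their mean over the 6 arrays (x axis), by list (y axis, number of markers tested); circles are tolerated and squares syngeneic arrays. Macrophage, T cell and smooth muscle markers lie higher and proximal tubule, intercalated cell and thick ascending limb markers lower in tolerated arrays, while the principal cell, endothelial, distal convoluted tubule, podocyte and neuronal lists overlap. Only 1 of 6 thick ascending limb markers was called (Egf, -3.32), and the list median was -0.12. Bsnd (-0.81) and Umod (-0.40) were negative, and Slc12a1 (0.27), Ptger3 (0.16) and Cldn16 (0.16) positive. Of 5 intercalated cell markers 3 were called lower, and 0 to 2 with 1 array left out.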

How the data were processed

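Total RNA of 3 tolerated and 3 syngeneic kidney grafts was measured on a rat genome survey array with digoxigenin labelling, 1 array per sample, per the labels' protocols. The authors deposited raw probe intensity, with no sign of normalization between arrays, and a second table of log2 values with equal quantiles; how it was made, the scanner software and any background subtraction are not stated. Columns of no sample numbered 0. Raw intensities (floor of 1, used by 0 values) were log2 transformed and quantile normalized. Probes with a mean at or below the lower quartile (7.76) were left out, so that 20142 of 26857 were tested with limma 3.58.1 in R 4.3.3, two-sided, no covariate, Benjamini-Hochberg adjusted over all tested probes at 0.05. Errors are standard errors of that fit and intervals are at 95%. The procedure was tested on simulated data.

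Of all probes 6104 carried 1 gene symbol, 70 several and 20683 none; 6081 symbols matched RefSeq (GRCr8). Members, families and lists were chosen with earlier results of these data known. Named were 26 fixed members with a probe, all called members without overlap (at most 12 in each direction), the 5 brightest, and up to 4 genes per regulator list; other genes with values were chosen after these were seen. No set test was made. Alternatives were median scaling, the deposited log2 table, no or a stricter filter, 50 added to intensities, the mean over a gene's probes, the replicate number as a block, and leaving out each array.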

Additional observations from a re-analysis of the deposited data

How the results depend on the processing

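The counts of called channel genes (7 higher, 9 lower) stayed at those numbers with the deposited log2 table, with 50 added to every intensity (26.2% of tested probes called) and with the mean over a gene's probes. The deposited table also has equal quantiles, so it could change little. The mean took in only second probes above the filter, those of Kcnj16 and Kcnd3. The dim second Kcnip2 probe was therefore not averaged in. The labels number the replicates of both groups 1 to 3, but same-numbered arrays did not deviate together (correlations of deviations from the group means of -0.002, 0.011 and 0.054). With the number as a replicate block, 1886 probes in place of 5075 (9.36% of those tested), and 6 higher and 4 lower channel genes passed (13.2% of those tested), 9 of them shared with the 16; Kcnd2 was gained, and this fit has fewer residual degrees of freedom. With 1 array left out, which leaves a smaller group, all called probes numbered 1610 to 6046, higher channel genes 2 to 6 and lower ones 3 to 11. The median change of the tested channel genes, -0.07, was -0.29 with equal medians and 0.05 without the filter, where 35 more genes entered, and -0.24 to -0.03 with 1 array left out. No called channel gene changed sign in any fit that tested it. The groups of every called gene did not overlap, so leaving out an array, the filter or the block could hardly reverse a sign. The kept signs are therefore no measure of stability. No measure of signal over background was used, so members near 7.76 could not be told from background.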
